A study of Mus musculus with 10 samples.

Results

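The imprinted Snrpn-Ube3a domain of mouse chromosome 7 was described through 7 protein-coding genes, Snrpn, Snurf, Ndn, Magel2, Mkrn3, Peg12 and Ube3a, taken by symbol from the 52636 gene identifiers of the count tables. All 7 symbols matched an identifier, 6 genes entered the test, and Snurf was listed at 0 in every library. The genes were chosen by their place in this domain and with their CBE-KO and WT counts already seen, so their own differences are given here as a description without p-values. RNA came from E14 cells, a male mouse embryonic stem cell line. All cells had been moved to medium without LIF and the MEK and GSK3 inhibitors, with retinoic acid added at 2 µM for 24 h. Unedited cells (WT, 2 libraries) were compared with cells from which a CTCF binding element had been deleted (CBE-KO, 2 libraries). The element lies near the HoxA cluster, per the study's title, on another chromosome than this domain. The labels say neither whether the CBE-KO cells are a single clone nor whether the libraries came from separate cultures, so the spread between replicates may be technical.

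In this domain the parental origin of a chromosome decides which genes are active. The chromosome from the father expresses Snrpn, Snurf, Ndn, Magel2, Mkrn3 and Peg12. On the chromosome from the mother their promoters are silenced, under the direction of an imprinting control region at the Snrpn start that carries maternal DNA methylation. Ube3a is expressed from both chromosomes in most cell types and from the maternal copy in neurons, where the long noncoding RNA Snhg14 runs through it from the paternal copy in the antisense direction. In humans, loss of the paternally expressed genes causes Prader-Willi syndrome, and loss of maternal UBE3A causes Angelman syndrome. Gene counts do not separate the alleles.

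In RefSeq's GRCm38.p6 annotation, the build that the submitters' processing notes name as mm10, the 7 genes lie between chr7:59228750-62464510. Ube3a lies at chr7:59228750-59310837 on the plus strand. Snrpn, at chr7:59982495-60450177 on the minus strand, holds the whole of Snurf (chr7:59982495-60005199), which is read from the same start and strand. Ndn (chr7:62348277-62349928, plus), Magel2 (chr7:62376979-62381640, plus), Mkrn3 (chr7:62417593-62420153, minus) and Peg12 (chr7:62461871-62464510, minus) form a compact group of intronless genes at the other end. Snhg14 spans 1177441 bases on the minus strand. It covers all 467683 bases of Snrpn and 38101 of the 82088 bases of Ube3a. The sources used here do not say whether counting used strand, so reads in these overlaps cannot be told apart.

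The promoter shared by Snrpn and Snurf is shown first because it lies in the imprinting control region of the domain. Its 250 bases before the annotated start (RefSeq, GRCm38.p6, chr7:60005200-60005449, minus strand, 5′ to 3′) are given with CpG dinucleotides, the sites of DNA methylation, in capitals.
Snrpn and Snurf shared start: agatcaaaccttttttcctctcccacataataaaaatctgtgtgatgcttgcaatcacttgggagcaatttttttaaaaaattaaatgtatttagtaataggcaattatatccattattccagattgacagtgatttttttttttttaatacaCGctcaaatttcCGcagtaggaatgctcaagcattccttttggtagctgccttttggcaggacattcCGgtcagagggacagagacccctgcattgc
The 300-base window around this start, 250 bases before and 50 after, held 7 CpG and had an observed to expected CpG ratio of 0.574. Of all promoter windows in the RefSeq table, 62.5% had a lower ratio. Ube3a, which keeps an unmethylated promoter on both chromosomes, had 29 CpG and a ratio of 0.842. The windows of Ndn, Magel2, Mkrn3 and Peg12 held 11, 10, 15 and 12 CpG, with ratios of 0.623, 0.513, 0.714 and 0.729.

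RefSeq lists 3 further Snrpn starts upstream, at positions 60047978, 60140225 and 60450177 of chromosome 7, and the last of these is also the start of Snhg14. Their windows were 79.7% to 81.4% identical to each other in a global alignment and 50.4% to 53.0% identical to the window of the shared start. They were CpG-poor, with 4, 3 and 2 CpG. The letters GCATGCG, part of the motif of the transcription factor NRF1, were found in all 4 Snrpn windows and in that of Ndn, on both strands at once because 2 overlapping matches form CGCATGCG. The longer, full NRF1 motif was in none of the domain gene windows, beside 0.971% of all 32851 promoter windows of the same length. The shorter GCATGCG was on either strand in 3.58% of these 32851 windows. The 30 bases around each match (GRCm38.p6, 5′ to 3′ on the gene's strand, matches in capitals) are shown because they are what the Snrpn and Ndn windows had in common.
Snrpn shared start, chr7:60005150-60005179, minus: cagccattgcctgggaCGCATGCGtaggga
Snrpn upstream start, chr7:60048031-60048060, minus: gcaaacatgcaCGCATGCGtcgttgaaggt
Snrpn upstream start, chr7:60140285-60140314, minus: gcaaacatccaCGCATGCGtgatgggaggg
Snrpn upstream start, chr7:60450222-60450251, minus: gcaaacatccaCGCATGCGtgattggaagg
Ndn, chr7:62348243-62348272, plus: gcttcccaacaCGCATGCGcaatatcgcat
Mkrn3 and Ube3a held AANATGGC, letters of the YY1 motif found in 6.05% of windows on either strand.
Mkrn3, chr7:62420262-62420291, minus: ggcacgcgaaaAACATGGCggaagcaactt
Ube3a, chr7:59228522-59228551, plus: agcccagtctcAAGATGGCgacgatgctgg
TGCCGC, the letters bound by the imprint-protecting factor ZFP57, occurred across the shared Snrpn start on the opposite strand and in no other of these windows (11.6% of all windows). AGGTCA, letters bound by retinoic acid receptors, was in 16.3% of all windows and in none of these. TATAAA was in 13.6% of all windows and, here, in those of Magel2 and of the Snrpn start at position 60047978. The motifs were chosen after the sequences had been seen, and a match describes letters only.

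The 4 libraries held 14108038 to 15632960 counts, and 3 counts, the floor taken for detection, equalled 0.185 to 0.218 CPM, which are counts per 1000000 of a library scaled by trimmed means of M-values (TMM). Replicates differed by more than sampling noise, with a chi-square per degree of freedom of 3.66 for WT and 2.84 for CBE-KO. Of 16005 genes tested in edgeR, 6895 (43.1%) had an adjusted p under 0.05. Of these calls, 50.2% were higher in CBE-KO under TMM, and 67.0% were when libraries were scaled by their totals, a setting under which the all-gene median log2 fold change was 0.11 in place of 0.007. All 12 embryonic stem cell markers were detected, with a summed level of 8320 to 8504 CPM for WT and 8138 to 8249 for CBE-KO. The largest part of this sum was Dppa5a, at 3440 to 3554 CPM (WT) and 4204 to 4305 CPM (CBE-KO). The sum therefore hides opposite shifts: 3 markers, Dppa5a among them, were called higher and 8 lower, beside 43.1% of all tested genes called. The 4 Y-linked genes Ddx3y, Eif2s3y, Uty and Kdm5d together had 12 and 10 counts (WT) and 2105 and 1875 counts (CBE-KO). Y-linked counts were thus near absent in WT, although E14 is a male line, and the reason was not tested. The removed element and any other difference between the cultures cannot be told apart in these libraries.

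Among the paternally expressed genes, Snrpn, Ndn, Mkrn3 and Peg12 had both CBE-KO libraries above both WT libraries, by 1.23- to 1.51-fold. Magel2 overlapped between groups, and Ube3a was lower in CBE-KO. In edgeR's quasi-likelihood test over all genes, 3 of the 6 tested genes passed, Snrpn and Ndn as higher and Ube3a as lower, beside 43.1% of all tested genes called in either direction, 21.6% as higher and 21.5% as lower. This share was near that background, and since these values helped choose the genes, nothing is read from it. Both CBE-KO libraries lay above both WT libraries for 36.5% of all tested genes and below them for 33.9%. The median log2 fold change of the 6 genes was 0.35, beside 0.007 for all tested genes.

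**Figure D1:**
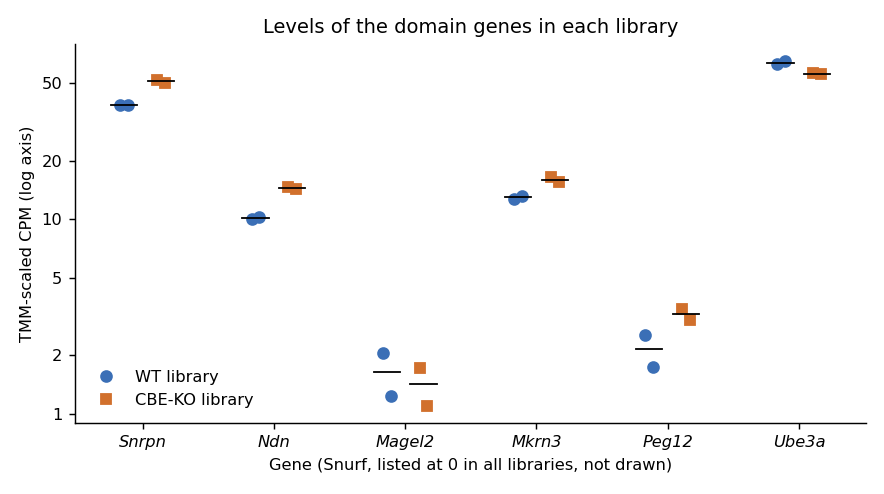
TMM-scaled CPM (log axis) of the 6 tested domain genes in each WT library (circles) and each CBE-KO library (squares), with bars for the group means. The CBE-KO points lie above the WT points for Snrpn, Ndn, Mkrn3 and Peg12, below them for Ube3a, and overlap them for Magel2.

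Snrpn encodes SmN, a core protein of the spliceosome that takes the place of SmB in brain. The WT libraries held 568 and 530 Snrpn counts, the CBE-KO libraries 847 and 732. These were 38.9 and 38.5 CPM (WT) against 52.2 and 50.3 CPM in CBE-KO. Both CBE-KO libraries stood well above both WT libraries, and replicates lay close together. The means were 38.7 ± 0.242 and 51.2 ± 1.33 CPM (SD, n = 2 each), and the log2 fold change was 0.41 ± 0.07 (SE). Over 12 alternative analyses of the same libraries the log2 fold change ranged from 0.38 to 0.51. Snurf, which encodes a small protein from the same bicistronic transcript, had 0 counts in all 4 libraries. The Sm core gene Snrpf, which dividing cells need for splicing, was listed at 0 in all 4 libraries as well. A 0 in these tables therefore says only how the gene is listed.

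Ndn encodes necdin, a MAGE family protein that binds E2F1 and restrains proliferation in neurons. WT held 146 and 142 counts of it and CBE-KO 237 and 208. On the CPM scale these were 9.99 and 10.3 in WT against 14.6 and 14.3 in CBE-KO. Both CBE-KO libraries stood clear of WT, with means of 10.2 ± 0.234 and 14.4 ± 0.218 CPM (SD, n = 2 each). The log2 fold change was 0.51 ± 0.13 (SE). It ranged from 0.48 to 0.61 over the alternatives, and in DESeq2 (0.49) it did not pass.

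Magel2 encodes a MAGE protein that joins the ubiquitin ligase TRIM27 and the WASH complex in endosomal protein recycling. It was the lowest of the tested domain genes, with counts of 30 and 17 (WT) and 28 and 16 (CBE-KO). On the CPM scale WT was at 2.05 and 1.24 and CBE-KO at 1.73 and 1.10, so the replicates of a group differed by more than the groups did. The 47 WT counts and 44 CBE-KO counts gave exact 95% Poisson intervals of 1.22 to 2.20 CPM and 1.04 to 1.92 CPM, which cover counting error only. The log2 fold change was -0.21 ± 0.38 (SE). Its sign turned to 0.20 without WT replicate 1 and to 0.061 without CBE-KO replicate 2, so no direction was detectable at this depth.

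Mkrn3 encodes a RING finger protein of the makorin family that acts as a brake on the onset of puberty. Its counts were 186 and 181 (WT) and 267 and 225 (CBE-KO), or 12.7 and 13.2 CPM against 16.5 and 15.5 CPM. The CBE-KO libraries were the higher pair, with means of 12.9 ± 0.304 and 16.0 ± 0.699 CPM (SD, n = 2 each). The log2 fold change of 0.30 ± 0.12 (SE) did not pass in edgeR with TMM scaling. It passed with upper-quartile scaling (0.34) and with library totals (0.41), so the call depended on scaling.

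Peg12, also named Frat3, encodes a relative of the FRAT proteins, which bind GSK3 and favour Wnt signalling. Its counts were 37 and 24 (WT) and 56 and 44 (CBE-KO). On the CPM scale WT was at 2.53 and 1.75 and CBE-KO at 3.45 and 3.02, so the groups were apart but the WT replicates lay far from each other. The log2 fold change of 0.59 ± 0.28 (SE) was the largest in size among the domain genes and did not pass with TMM scaling. Without WT replicate 1 it was 0.89, and without WT replicate 2 it was 0.35. With library totals it was 0.70 and passed, so the call depended on scaling. Of all tested genes, 77.9% had a smaller absolute log2 fold change than Peg12, against 64.8% for Snrpn, 73.0% for Ndn and 53.3% for Mkrn3.

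Ube3a encodes a ubiquitin ligase that marks proteins for degradation. The WT counts were 916 and 894 and the CBE-KO counts 914 and 815, which after scaling were 62.7 and 65.0 CPM against 56.3 and 56.0 CPM. Both CBE-KO libraries were lower, with means of 63.9 ± 1.63 and 56.2 ± 0.216 CPM (SD, n = 2 each). The log2 fold change was -0.18 ± 0.06 (SE), and 36.1% of all tested genes had a smaller absolute value. The call was lost without WT replicate 2 (-0.16), without CBE-KO replicate 1 (-0.19), without CBE-KO replicate 2 (-0.18), in DESeq2 (-0.20), with upper-quartile scaling (-0.15) and with library totals (-0.080). The sign was negative in all 12 alternatives.

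The 4 intronless genes could be compared with each other per length, since their RefSeq span equals their transcript. Ndn was highest at 6.15 ± 0.142 CPM per kb in WT (SD, n = 2), followed by Mkrn3 at 5.06 ± 0.119, Peg12 at 0.810 ± 0.211 and Magel2 at 0.353 ± 0.124. In CBE-KO the order was the same, with 8.75 ± 0.132, 6.23 ± 0.273, 1.23 ± 0.114 and 0.303 ± 0.0949 CPM per kb. The libraries of neighbouring genes in this order did not overlap in either group. Snrpn, Ube3a and Snhg14 have introns, and their exon lengths were not used here.

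**Figure D2:**
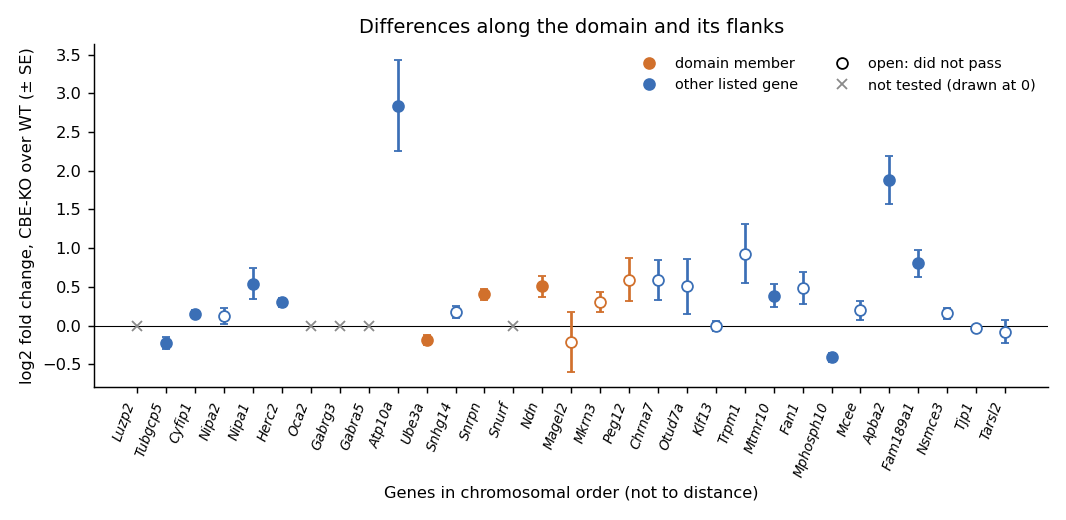
Log2 fold change of CBE-KO over WT (± SE) for the domain genes and most listed neighbours, ordered along chromosome 7 but not spaced by distance. Filled points passed at an adjusted p under 0.05, open points did not, and crosses were not tested. Atp10a has the highest point at 2.84, and the domain members lie between -0.21 and 0.59.

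Snhg14, the noncoding host of the SNORD115 and SNORD116 small nucleolar RNAs, is not among the 7 genes. Its counts were 694 and 637 (WT) and 904 and 730 (CBE-KO), or 46.9 ± 0.839 and 52.9 ± 3.91 CPM (SD, n = 2 each). The log2 difference of 0.18 ± 0.07 (SE; edgeR adjusted p = 0.0642) did not pass. It passed with upper-quartile scaling (0.21, adjusted p = 0.0274), with library totals (0.28, adjusted p = 0.00410) and without CBE-KO replicate 2 (0.25, adjusted p = 0.0363). It was the 1 tested gene of 7 matched further transcripts of the domain, and the other 6 had no count. Transcripts without a count could not be called. Snhg14 itself was called neither by edgeR with TMM scaling nor by DESeq2, and its unadjusted p in that edgeR fit was under 0.05. RefSeq places 13 microRNA and 202 small nucleolar RNA genes that match the tables between Ube3a and Peg12. No microRNA gene there had a count, and 3 small nucleolar RNA genes had at most 3 counts in a library. As for Snurf, these counts say only how the genes are listed.

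Ratios within a library do not depend on scaling. For every 100 counts of Ube3a there were 75.8 and 71.3 counts of Snhg14 in WT and 98.9 and 89.6 in CBE-KO. For every 100 counts of Snrpn there were 122 and 120 counts of Snhg14 in WT and 107 and 99.7 in CBE-KO. The first ratio was higher and the second lower in both CBE-KO libraries. Magel2 counts per 100 counts of Ndn were also lower in both, at 16.3 ± 6.06 in WT and 9.75 ± 2.91 in CBE-KO (SD, n = 2 each). How often ratios of other gene pairs separate the groups in this way was not tested.

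Genes on both sides of the domain were listed as a comparison. Like the members, they were chosen with earlier results of these data known. Of 20 flanking genes tested, 9 passed, 7 higher and 2 lower, beside 21.6% of all tested genes called higher and 21.5% called lower. Their median log2 fold change was 0.25, beside 0.35 for the 6 domain genes and 0.007 for all tested genes. Since earlier results were known when these genes were listed, nothing is read from these medians. On the Atp10a side 5 of 7 tested genes passed (71.4%) and on the Peg12 side 4 of 13 (30.8%), beside 43.1% of all tested genes. The counts for the Atp10a side and for both sides together include Atp10a itself. With a mean of at least 1 CPM required, Atp10a was not tested, and 4 of 6 genes of its side passed, 3 higher and 1 lower. Atp10a, a phospholipid-transporting ATPase gene next to Ube3a, was at 5 and 1 counts (WT) and 20 and 28 counts (CBE-KO). The difference was 2.84 ± 0.59 on the log2 scale (SE; edgeR adjusted p = 0.000851). This gene entered the test only through its CBE-KO counts, and 1 WT library was under the floor of 3 counts, so its call is not read as support for a difference. The value was 2.16 without WT replicate 2 and 4.28 without WT replicate 1, so its size depended on which WT library was kept.

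On the same side Herc2, a giant ubiquitin ligase gene whose product binds UBE3A, was at 68.8 ± 0.851 CPM for WT against 84.8 ± 1.40 for CBE-KO (SD, n = 2 each). This was a log2 difference of 0.30 ± 0.06 (SE; edgeR adjusted p = 0.000386), kept at 0.28 to 0.41 in the 12 alternatives. Nipa1, a magnesium transporter gene, had 0.54 (adjusted p = 0.0402), Cyfip1, an actin and translation regulator, 0.15 (adjusted p = 0.0221), and Tubgcp5, of the gamma-tubulin complex, -0.22 (adjusted p = 0.0253). Nipa1 lost its call without any single library (0.42 to 0.66), Cyfip1 without WT replicate 1 (0.14) or either CBE-KO library (0.14 and 0.17), and Tubgcp5 without either WT library (-0.23 and -0.22) or CBE-KO replicate 2 (-0.17). Tubgcp5 also lost it with upper-quartile scaling (-0.19) and with library totals (-0.12), and all 3 lost it in DESeq2. The GABA receptor genes Gabra5 and Gabrg3 and the pigment gene Oca2 had at most 9 counts in any library.

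On the Peg12 side, Apba2, which encodes a neuronal adaptor of the amyloid precursor protein, was at 23 and 12 counts (WT) and 66 and 74 counts (CBE-KO). The log2 difference was 1.88 ± 0.31 (SE; edgeR adjusted p = 9.28e-05), with values from 1.52 to 2.37 when single libraries were left out. The neighbouring listed gene, Fam189a1, was at 5.83 ± 0.798 CPM for WT against 10.2 ± 0.273 for CBE-KO (SD, n = 2 each), with a log2 difference of 0.80 ± 0.17 (SE; edgeR adjusted p = 0.000992). Mphosph10, a ribosome biogenesis gene, fell by 0.41 ± 0.06 on the log2 scale (SE; edgeR adjusted p = 1.57e-05). Mtmr10 was higher by 0.39 (edgeR adjusted p = 0.0412), but not without WT replicate 1 (0.31) or CBE-KO replicate 1 (0.28), nor in DESeq2 or without the expression filter. With library totals, 9 rather than 4 genes of this side passed, 8 of them higher.

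The protein families and partners of the domain genes were compared as lists. Of the 6 tested Sm core genes, 5 passed and all 5 were lower (83.3%, beside 43.1% of all tested genes called and 21.5% called lower), with a median log2 fold change of -0.31. The fifth was Snrpd1 at -0.27. Snrpd2, Snrpd3, Snrpe and Snrpg had log2 fold changes of -0.31, -0.32, -0.35 and -0.33 (edgeR adjusted p of 5.76e-05, 3.49e-05, 2.20e-05 and 0.000267). Snrpb, which encodes the SmB protein that SmN replaces, was the 1 that did not pass, with 228 ± 18.8 CPM for WT against 236 ± 3.08 for CBE-KO (0.05 ± 0.05, SE; edgeR adjusted p = 0.480). It was at -0.032 without WT replicate 1, and it passed as higher without WT replicate 2 (0.13) and with library totals (0.16). For every 100 counts of Snrpb there were 18.1 and 16.0 counts of Snrpn in WT and 22.3 and 21.1 in CBE-KO, so both CBE-KO libraries had the higher ratio.

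**Figure D3:**
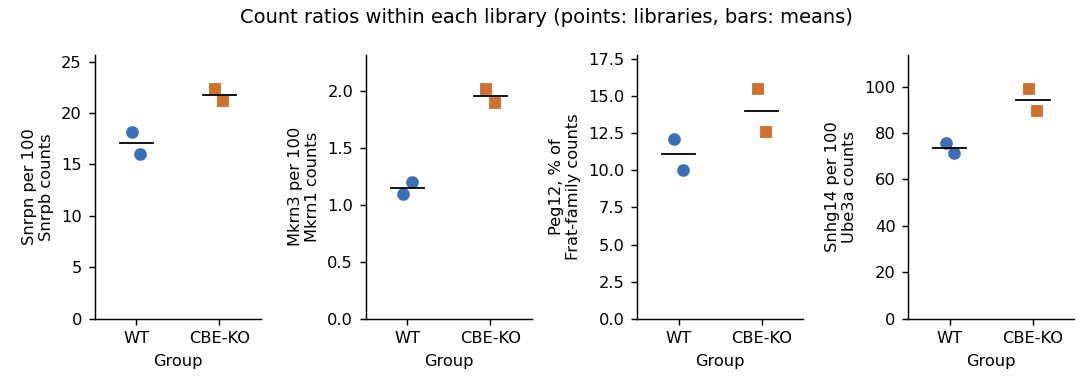
Ratios of raw counts within each library for Snrpn over Snrpb, Mkrn3 over Mkrn1, Peg12 as a percentage of the Frat1, Frat2 and Peg12 counts, and Snhg14 over Ube3a, with WT as circles, CBE-KO as squares and bars for the means. In each of the 4 panels both CBE-KO libraries lie above both WT libraries, for Peg12 by a narrow gap (12.1% in WT replicate 1, 12.6% in CBE-KO replicate 2). The ratios that were lower in both CBE-KO libraries, Snhg14 over Snrpn and Magel2 over Ndn, are not drawn, nor is Ndn over Maged1, which was higher.

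Of the 17 tested genes of the MAGE family and of necdin and MAGEL2 partners, 12 passed (70.6%, beside 43.1% of all tested genes), 5 higher and 7 lower. Their median log2 fold change was -0.02. In DESeq2 8 passed, 2 higher and 6 lower. Of the proteins that act with MAGEL2, the genes of the ligase TRIM27 (Trim27, -0.28), the deubiquitinase USP7 (Usp7, -0.30), the retromer subunit VPS35 (Vps35, -0.20) and the WASH subunit Washc5 (-0.27) were lower. Vps35 did not pass with library totals (-0.092). The WASH gene Washc1 was higher (0.18), but not in DESeq2 (0.17), with the replicate block (0.18), with median-of-ratios scaling (0.17), without the expression filter (0.18), without WT replicate 1 (0.15) or without either CBE-KO library (0.20 and 0.17). Of the MAGE genes, Maged1 (0.34) and Maged2 (0.33) were higher, the latter not in DESeq2 (0.31), and Nsmce1, a partner of MAGE proteins, was lower (-0.23). Nsmce1 did not pass in DESeq2 (-0.24), with library totals (-0.12), without WT replicate 1 (-0.13) or without CBE-KO replicate 2 (-0.20). Magee2 was also higher (0.82 ± 0.28, SE; edgeR adjusted p = 0.0242), with 24 and 30 counts against 53 and 51. It did not pass without WT replicate 1 (0.63), without either CBE-KO library (0.87 and 0.77) or in DESeq2. E2f1, whose product necdin binds, was higher by 0.39 ± 0.06 (SE; edgeR adjusted p = 9.67e-05), and E2f4 was lower at -0.47 ± 0.05 (SE; edgeR adjusted p = 9.45e-07). The neurotrophin receptor gene Ngfr was lower at -0.77 ± 0.13 (SE; edgeR adjusted p = 0.000115).

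The list around UBE3A, of partners, proteasome shuttles and reported substrates, had 6 of 10 genes past the threshold (60.0%, beside 43.1% of all tested genes), 2 higher and 4 lower. Herc2, given above, was among the higher. Rad23b (-0.34, edgeR adjusted p = 2.65e-05), Ubr4 (-0.34, adjusted p = 5.19e-05) Mcm7 (-0.23, adjusted p = 0.000608) and Psmd4 (-0.17, adjusted p = 0.00963) were the lower ones. Psmd4 did not pass with library totals (-0.061) or without CBE-KO replicate 2 (-0.15). Of the 10 Frat, Gsk3 and Wnt pathway genes around Peg12, edgeR called 0, DESeq2 called 0, and 0 had an unadjusted p under 0.05. Frat1 (0.29 ± 0.17, SE) and Frat2 (0.19 ± 0.16, SE) had adjusted p of 0.196 and 0.358 in edgeR, and Gsk3b, a kinase gene, was at 0.05 (adjusted p = 0.594). Peg12 made up 12.1% and 10.0% of the counts of the 3 Frat genes in WT and 15.5% and 12.6% in CBE-KO.

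In the makorin family, Mkrn1 was lower, at 1128 ± 43.5 CPM for WT against 815 ± 0.0170 for CBE-KO (SD, n = 2 each), with a log2 difference of -0.47 ± 0.05 (SE; edgeR adjusted p = 2.67e-07). Mkrn2 was at -0.03 ± 0.09 (SE; edgeR adjusted p = 0.788), a sign that depended on scaling. For every 100 counts of Mkrn1 there were 1.10 and 1.20 counts of Mkrn3 in WT and 2.02 and 1.90 in CBE-KO.

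Factors that set or keep imprints were compared next. Of 21 tested, 10 passed (47.6%, near the 43.1% of all tested genes), with a median log2 fold change of -0.11. By direction, 1 was higher and 9 were lower, beside 21.6% and 21.5% of all tested genes. The 1 higher gene was Smchd1, a silencing factor, at 0.31 (edgeR adjusted p = 0.000550). The de novo DNA methylation genes were all lower, with Dnmt3l at -1.71 ± 0.05, Dnmt3b at -1.13 ± 0.05 and Dnmt3a at -0.57 ± 0.05 (SE; edgeR adjusted p of 3.85e-14, 1.74e-11 and 4.11e-08). The histone methyltransferase gene Ehmt2, which acts in silencing the maternal copy of this domain, was at -0.70 ± 0.05 (SE; edgeR adjusted p = 2.86e-09). Trim28, the cofactor of imprint-protecting zinc finger proteins, was at -0.44 ± 0.04 (SE; edgeR adjusted p = 1.82e-07). Zfp57, the zinc finger protein gene itself, did not pass (-0.08 ± 0.04, SE; edgeR adjusted p = 0.156), and its value was 0.023 with library totals. Arid4a and Arid4b, whose products act on the imprint of the Snrpn start, were at 0.12 and 0.11 (edgeR adjusted p of 0.278 and 0.249) and passed as higher with library totals (0.22 each). DNA methylation of the domain was not measured in these libraries.

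Because several domain genes are strongest in neurons, markers of other cell types were set beside them, with 43.1% of all tested genes called as the background to each count. The 10 neuron markers summed to 403 to 437 CPM for WT and 311 to 316 for CBE-KO, and of 7 tested, Map2 and Syt1 were higher and Tubb3, Rbfox3 and Stmn2 lower. Most of this sum was Stmn2, at 318 to 343 CPM (WT) and 249 to 253 CPM (CBE-KO), followed by Tubb3. In DESeq2 only Tubb3 and Stmn2 of these 5 passed, and Rbfox3 and Syt1 also lost their calls without single libraries. Snap25 had at most 2 counts and Dcx at most 3 in any library. The 8 fibroblast markers summed to 22.9 to 26.8 CPM for WT and 27.2 to 29.7 for CBE-KO, with Twist2, Postn and Dcn at 0 in all libraries and 1 of 3 tested, Col1a1, higher, though not in DESeq2. The 8 primitive endoderm markers summed to 362 to 371 CPM for WT and 391 to 392 for CBE-KO. Of 8 tested, Gata4, Dab2, Lama1 and Col4a1 were higher, though Dab2 not in DESeq2. Dab2 ranged from 0.63 to 0.89 on the log2 scale with single libraries left out, and its call was not kept in every such fit. The other 4 did not pass, with log2 fold changes of 0.01 (Gata6), 0.20 (Sox17), -0.08 (Sparc) and -0.04 (Pdgfra). Of the 12 stem cell markers 11 passed, 3 higher and 8 lower. The part of these shifts in the domain genes' values was not tested, and in bulk RNA fewer cells of a type and less RNA per cell cannot be told apart.

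**Figure D4:**
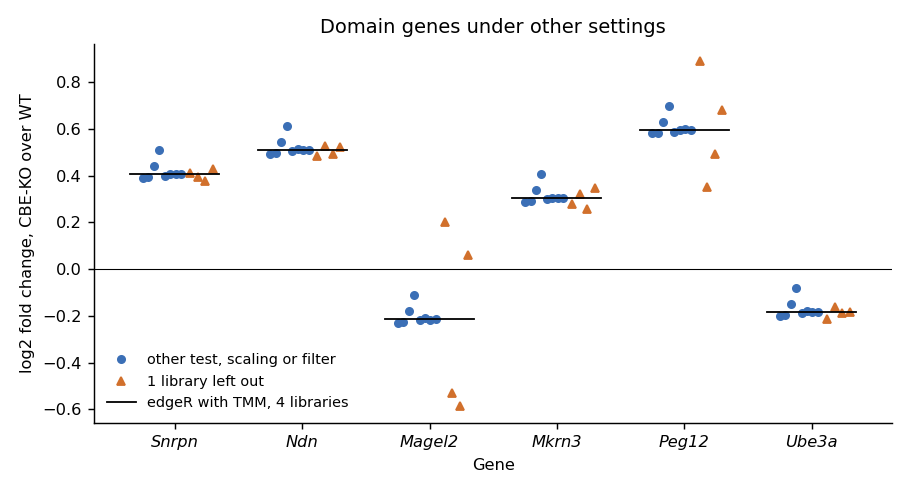
Log2 fold change of CBE-KO over WT for the 6 tested domain genes: the bar is edgeR with TMM scaling, circles are other tests, scalings and filters, and triangles are fits with 1 library left out. Snrpn, Ndn, Mkrn3 and Peg12 lie above 0 and Ube3a below 0 at every point, while Magel2 lies on both sides.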

How the data were processed

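RNA-seq of 2 WT and 2 CBE-KO libraries was used; 6 Capture-C samples were not analysed here. The deposited values are raw read counts per mouse Ensembl gene, as the values show. Per the submitters' processing notes, HISAT2 2.1.0, HTSeq 0.9.1, DESeq2 1.18.1, Bowtie2 2.3.1 and the build mm10 were used, with no role stated; counting mode, strand and annotation release are not given in the sources used here. Such choices affect overlapping genes.

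Groups came from sample titles. Genes passing edgeR's filterByExpr (16005) were scaled by TMM and tested with glmQLFit and glmQLFTest (edgeR 4.0.16, R 4.3.3), two-sided, without covariates, with Benjamini-Hochberg adjustment over all tested genes at 0.05. SE is the log2 fold change divided by the root of the F statistic. Scripts were tested on simulated counts. The members and lists were chosen with earlier results of these data known. Named were all members, tested domain transcripts, passing flank genes, 10 fixed partner genes and up to 4 largest passing genes per other list; Gm7367 and Gm10297 were added after their counts were seen, as were Smchd1, Snrpd1 and other genes named to complete a count, as partners or as markers. Alternatives were DESeq2 1.42.0, 3 scalings, 2 filters, the replicate block, a threshold of 0.01, leaving out each library and, added later, robust moderation. Some listed genes are not reported here by name. Symbols were found for 52403 of 52636 identifiers.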

Additional observations from a re-analysis of the deposited data

How the results depend on the processing

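A replicate block changed 1 call of a named gene, Washc1 (0.183, adjusted p = 0.0503 in edgeR): 7027 genes passed in place of 6895, 3 domain genes passed as before, and no count given here moved by over 1.5 times; the labels do not say that the numbers mark a shared batch, and deviations of same-numbered libraries had a correlation of 0.035. DESeq2 called 4119 of 17337 genes, 1 of the 6 domain genes (Snrpn) and 2 genes of the Atp10a side. Library totals called 1 further domain transcript, 9 genes of the Peg12 side and 1 Frat or Gsk3 gene, and upper-quartile scaling called 1 further domain transcript. At an adjusted p under 0.01, 2 genes of the Atp10a side passed, and over all genes 4917 did. Without 1 library at a time, 5492 to 6420 genes passed, as did 2 to 4 domain genes, 0 to 1 further domain transcripts, 2 to 3 genes of the Atp10a side and 0 to 1 Frat or Gsk3 genes; these fits assume that a lone library varies like the other group's. Signs turned for Magel2 (0.201 without WT replicate 1, 0.0613 without CBE-KO replicate 2, range -0.584 to 0.201 over the left-out libraries), Snrpb (-0.0321 without WT replicate 1, range to 0.133), Mkrn2 (0.00126 with upper-quartile scaling, 0.0707 with library totals, 0.0734 without WT replicate 2, range from -0.141), Zfp57 (0.0227 with library totals) and Gm7367 (0.0314 with upper-quartile scaling, 0.101 with library totals, 0.120 without WT replicate 1, 0.00730 without CBE-KO replicate 1, range from -0.122). The causes were not tested. With a mean of at least 1 CPM required, Atp10a had no value. The low counts of Magel2, Peg12 and Atp10a limit what these libraries can show of them. Robust moderation, chosen after seeing the data, called 7150 genes and 3 domain genes.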

Other observations

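Besides the genes above, 2 tested identifiers lay between Ube3a and Peg12, both pseudogenes named after their counts were seen. Gm10297 was at 98 and 77 counts (WT) and 153 and 156 counts (CBE-KO), a log2 difference of 0.71 ± 0.17 (SE; edgeR adjusted p = 0.00288) that did not pass in DESeq2 (adjusted p = 0.0504). Gm7367 was at 1160 and 926 counts (WT) and 1180 and 1074 counts (CBE-KO) and did not pass (-0.00 ± 0.07, SE; edgeR adjusted p = 0.975). Reads of a pseudogene and of its parent gene may not be separated by the counting, so both values are uncertain.

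The genes whose log2 CPM, centred over the 4 libraries, lay closest to that of Ube3a were Fam120a, Tnfaip1 and Ptprf, at Euclidean distances of 0.00385, 0.00683 and 0.0122. With 4 libraries such likeness is common, and 905 of 14597 candidate genes lay within 0.1 of Ube3a. The genes closest to Peg12 were Pde10a, Rps26-ps1 and En2, at distances of 0.0276, 0.0660 and 0.0676, and 7 candidates lay within 0.1. Ndn had 5.06 and 5.33 counts per 100 counts of the related Maged1 in WT and 5.85 and 5.82 in CBE-KO.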
